A study of Mus musculus with 12 samples.

Results

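The 10 cathepsin genes named for this description (Ctsa, Ctsb, Ctsc, Ctsd, Ctse, Ctsh, Ctsk, Ctsl, Ctss and Ctsz) were followed through dendritic cells sorted from mouse kidney. They were found by gene symbol in the deposited expression table, where all 10 were present among 26121 genes. Of these genes 14180 passed the filter on low values (at least 1 count per M reads, CPM, in at least 3 libraries), and 9 of the 10 cathepsins were among them, Ctsk being the exception. RNA came from 6 wild-type male mice aged 8 to 12 weeks, of a strain that the sources used here do not give. The 4 groups, with 3 libraries each, were CD11b+ cells from nephritic kidneys, CD11b+ cells from healthy kidneys, CD103+ cells from nephritic kidneys and CD103+ cells from healthy kidneys. The nephritic mice were killed 7 days after an antiserum that causes nephrotoxic nephritis (NTN), an immune disease of the glomeruli. The CD103 integrin chain (gene Itgae) marks the cross-presenting type of conventional dendritic cell. The CD11b chain (gene Itgam) is found on the other conventional type and also on monocytes and macrophages, so a CD11b+ gate can hold several cell types. Going by its title, the series asks whether the subsets act in opposite ways in glomerulonephritis, and the comparisons made were NTN against healthy in each subset and CD11b+ against CD103+ cells in each state. Whether the subsets responded differently was tested as well.

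Cathepsins are proteases of endosomes and lysosomes. They are made as inactive proenzymes, delivered mainly by mannose 6-phosphate receptors, and switched on in the acid compartment by removal of a propeptide. In dendritic cells they cut internalised proteins into peptides for MHC class II molecules, degrade the invariant chain that blocks the class II groove, and process the endosomal Toll-like receptors. The catalytic classes differ: Ctsb, Ctsc, Ctsh, Ctsk, Ctsl, Ctss and Ctsz encode cysteine proteases, Ctsd and Ctse encode aspartic proteases, and Ctsa encodes a serine carboxypeptidase.

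Promoters were available for 7 of the 10 genes (8 promoters, since Ctsa had a pair) and were taken from RefSeq on GRCm38.p6, each running from 250 bases before to 50 bases after a RefSeq start. They were searched on both strands for the letters CACGTG (the E-box core), TCACGTGA (the core of the CLEAR element bound by the lysosomal regulator TFEB and its relatives, which always holds an E-box core) and GAGGAAGT (a core bound by the myeloid factor PU.1). Among 32851 RefSeq promoters of the same length these letters occurred in 7.15%, 0.974% and 3.20%. The stretches that held a match are shown so that the members' promoters can be compared, with the matched letters in capitals (ACTTCCTC is GAGGAAGT read on the other strand). The window of Ctsz, whose profile ran most like that of Ctsc, held none. No promoter was available for Ctsb, Ctse and Ctsh, and a relation of the letters to the levels was not tested.
Ctsa, chr2:164833749-164833778, + strand: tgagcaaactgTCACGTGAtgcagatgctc
Ctsa, chr2:164833766-164833795, + strand: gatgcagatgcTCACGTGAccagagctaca
Ctsd, chr7:142387908-142387937, - strand: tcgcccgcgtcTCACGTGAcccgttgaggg
Ctsd, chr7:142388048-142388077, - strand: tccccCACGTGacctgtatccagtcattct
Ctsl, chr13:64370738-64370767, - strand: gcgttagaagcCACGTGctgatctaaattc
Ctsc, chr7:88277923-88277952, + strand: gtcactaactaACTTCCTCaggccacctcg
Ctss, chr3:95526773-95526802, + strand: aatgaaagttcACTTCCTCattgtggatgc
The first Ctsa match began at position -13 and the second at position 4 from the RefSeq start at 164833773. The Ctsd matches began at -99 and -245, the Ctsl match at -236, the Ctsc match at -151 and the Ctss match at -2. In the GENCODE annotation the Ctsa, Ctsd and Ctsl genes reach beyond these RefSeq starts, so both Ctsa stretches, the first Ctsd stretch and the Ctsl stretch lie inside the gene there. The windows of Ctsk, Ctsz and the other Ctsa start held none of the letters searched. A match describes letters only and is neither a binding site nor a cause of the levels below.

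The libraries held 11.5 to 26.6 M reads, and a gene with 3 reads in a library, the limit that a count of 0 allows, stood at 0.112 to 0.254 CPM. Such limits cover counting error only, since amplified reads are not independent molecules. The sorts carried the markers of their labels. Itgae was at 4.65 to 5.05 CPM in CD11b+ NTN libraries, 1.69 to 3.27 CPM in CD11b+ healthy libraries, 881 to 1229 CPM in CD103+ NTN libraries and 55.5 to 114 CPM in CD103+ healthy libraries. Itgam was at 299 to 346 CPM, 114 to 129 CPM, 6.66 to 7.32 CPM and 1.45 to 1.94 CPM in the same order. The libraries also held unequal amounts of kidney tubule RNA. The 15 tubule markers made up 0.398% to 0.667% of CD11b+ NTN libraries, 0.798% to 2.03% of CD11b+ healthy libraries, 0.383% to 0.458% of CD103+ NTN libraries and 3.52% to 5.68% of CD103+ healthy libraries. The mean log2 level of 30 leukocyte reference genes ran from 8.16 to 8.25, 7.67 to 7.87, 7.99 to 8.05 and 5.83 to 6.93 in that order, so the healthy CD103+ libraries stood apart on both. The differences were therefore also computed after each library was shifted to the same leukocyte mean (leukocyte scaling). This moved the median log2 difference of all tested genes to -1.47 (0.16 as deposited) for NTN in CD103+ cells, to -0.36 (0.08) for NTN in CD11b+ cells, to -1.34 (0.02) between the healthy subsets, to -0.16 (0.01) between the NTN subsets and to 1.12 (-0.07) for the difference of responses. The genes called higher and lower went with it: 355 and 10182 under leukocyte scaling, against 4911 and 3940 as deposited, for NTN in CD103+ cells; 601 and 2862, against 2850 and 2237, for NTN in CD11b+ cells; 650 and 10030, against 3604 and 3480, between the healthy subsets. Between the NTN subsets they were 761 and 957, against 1370 and 1164, and for the difference of responses 6144 and 179, against 2510 and 2512. In such sorted bulk samples, fewer cells of a type and less RNA per cell cannot be told apart.

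Levels below are CPM for each library or mean CPM ± SD (n = 3), a difference is on the log2 scale with its SE, and the adjusted p (Benjamini-Hochberg over 14180 genes) is that of limma. Within NTN kidneys all 9 tested cathepsins differed between the subsets: 8 were higher in CD11b+ cells and Ctse alone was lower. Of all tested genes 17.9% passed in that comparison, 9.66% as higher and 8.21% as lower. The median log2 difference of the 9 was 1.34, against 0.01 over all genes. Other markers moved with them: 10 of 12 macrophage markers were higher in CD11b+ cells as well (median log2 difference 5.52). The 8 neutrophil markers summed to 164 to 268 CPM in CD11b+ NTN libraries and to 0.936 to 1.67 CPM in CD103+ NTN libraries. The 7 tested ones passed the filter mainly through the CD11b+ libraries, so a count of them is no result. The part of these cells was not tested. None of the 15 tubule markers passed between the NTN subsets by limma, none had an unadjusted p under 0.05 and none passed by voom. Under leukocyte scaling 7 cathepsins still passed, 6 as higher and Ctse as lower. In nephritis 6 cathepsins rose in CD11b+ cells and none fell, where 35.9% of all genes passed (20.1% higher, 15.8% lower). The median of the 9 was 0.85, against 0.08 over all genes, and 7 of the 9 had an unadjusted p under 0.05. Under leukocyte scaling 2 of the 9 passed, Ctsc and Ctsz. In the same comparison 10 of 12 macrophage markers rose and 9 of 15 tubule markers fell, and their part was not tested. In CD103+ cells 4 rose and 3 fell, where 62.4% of all genes passed (34.6% higher, 27.8% lower), so that 7 of 9 is close to the background. All 15 tubule markers fell in that comparison, and under leukocyte scaling 6 cathepsins passed, all as lower. Between the healthy subsets 5 were higher in CD11b+ cells and 2 were lower, with 50.0% of all genes passing (25.4% higher, 24.5% lower), and 13 of the 15 tubule markers were lower in CD11b+ cells. Under leukocyte scaling 1 was higher and 5 were lower. The responses of the subsets differed for 6 of the 9, 4 of them upward and 2 downward in CD11b+ relative to CD103+ cells, with 35.4% of all genes passing (17.7% each way), and 7 passed under leukocyte scaling, all upward.

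**Figure D1:**
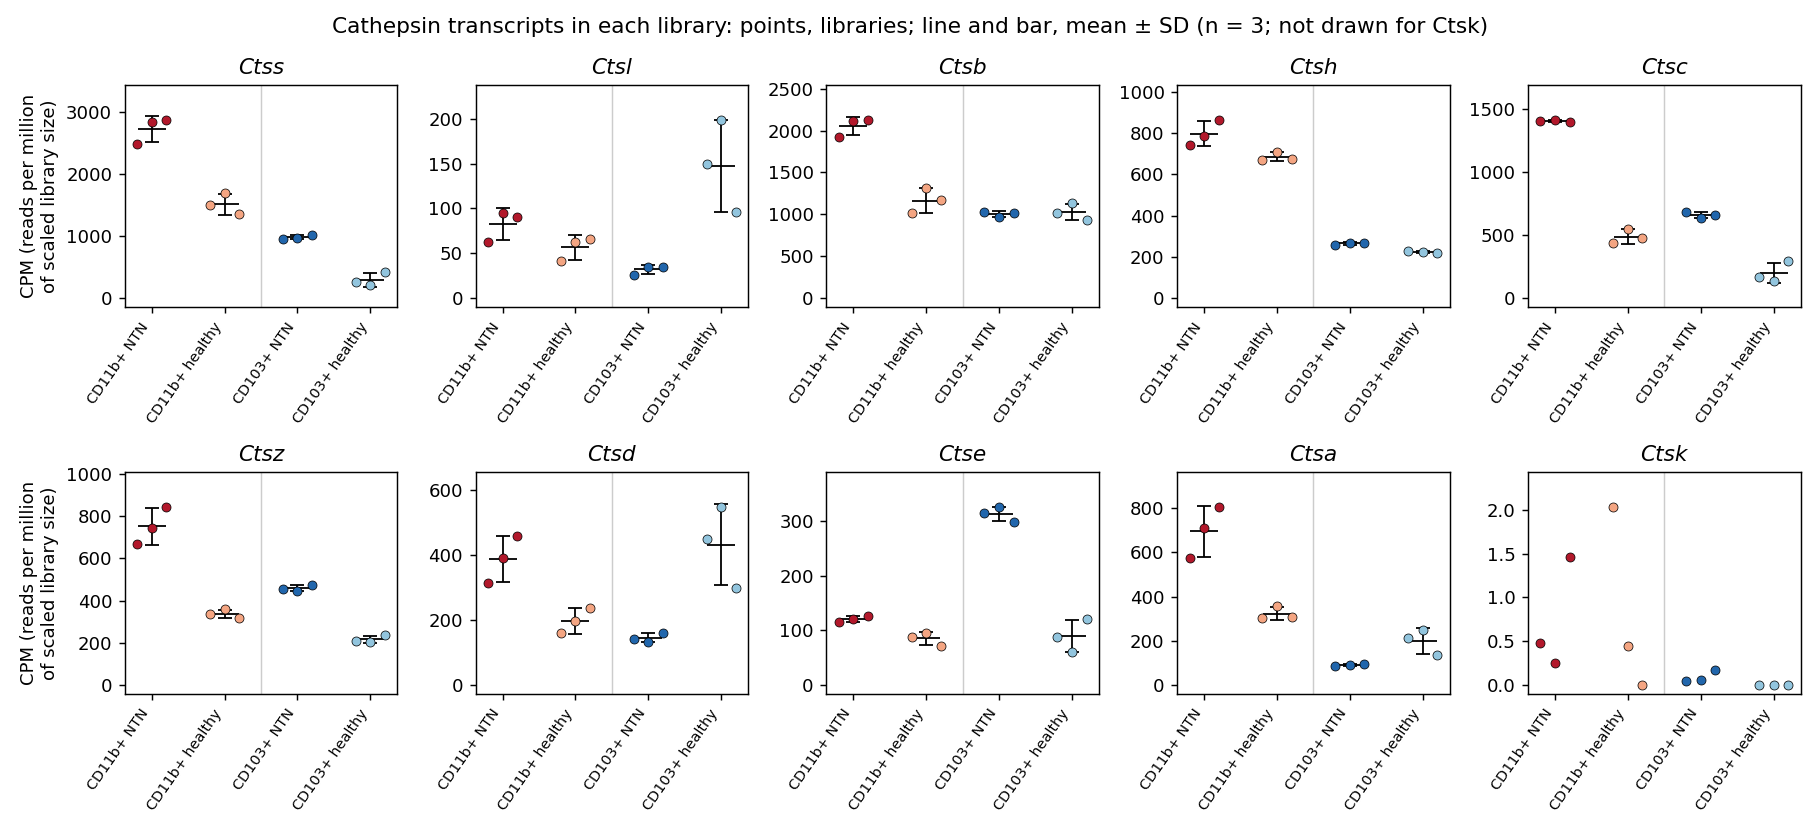
Level of each of the 10 cathepsins in CPM (y axis, own scale per gene) in the 4 groups, with points for the 3 libraries of a group and bars for mean ± SD (not drawn for Ctsk). Ctss ran from 209 CPM in a CD103+ healthy library to 2865 CPM in a CD11b+ NTN library, Ctse was highest in CD103+ NTN libraries, and Ctsd and Ctsl had their highest means in CD103+ healthy libraries.

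Ctss (ENSMUSG00000038642, chromosome 3, 95526786 to 95556403, + strand, GENCODE M21 annotation of GRCm38, as for all genes here) encodes cathepsin S, the cysteine protease that carries out the last steps of invariant chain removal in antigen-presenting cells. By group mean per kilobase of transcript it was the most abundant of the 10 in every group. In CD103+ healthy cells this rested on the third library, since Ctss had 193, 155 and 316 CPM per kilobase in the 3 libraries, Ctsb 215, 239 and 197, and Ctsd 212, 258 and 141. It stood at 2491, 2837 and 2865 CPM in CD11b+ NTN libraries, against 1502, 1694 and 1351 CPM in CD11b+ healthy libraries. Its CD103+ levels were 953, 976 and 1023 CPM in NTN libraries, against 261, 209 and 428 CPM in healthy libraries. No group overlapped another, and the order from high to low was CD11b+ NTN, CD11b+ healthy, CD103+ NTN and CD103+ healthy. Ctss rose by 0.85 ± 0.21 in CD11b+ cells (limma adjusted p = 0.00586) and by 1.78 ± 0.21 in CD103+ cells (adjusted p = 6.55e-06). It was higher in CD11b+ than in CD103+ cells by 2.40 ± 0.21 in healthy kidneys (adjusted p = 1.4e-06) and by 1.47 ± 0.21 in NTN kidneys (limma adjusted p = 0.000148). The 2 responses differed by -0.93 ± 0.29 (adjusted p = 0.0249), a call that was lost without the first CD11b+ NTN library (-0.86, limma adjusted p = 0.057), the second CD11b+ healthy library (-0.84, limma adjusted p = 0.0614), the third CD103+ NTN library (-0.90, limma adjusted p = 0.0531) or the first CD103+ healthy library (-0.86, limma adjusted p = 0.0606). Under leukocyte scaling it was 0.26 (limma adjusted p = 0.319), and the rises in CD11b+ and CD103+ cells missed the threshold (0.42 and 0.16, limma adjusted p = 0.0543 and 0.347). The 3 healthy CD103+ libraries ran in the same order for Ctss as for the leukocyte gene Ptprc, which stood at 307, 177 and 488 CPM there, whose part in the result was not tested.

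Ctsl (ENSMUSG00000021477, chromosome 13, 64359337 to 64370890, - strand) encodes cathepsin L, a broad cysteine endopeptidase that handles the invariant chain in the thymic cortex. It stood at 62.1, 94.7 and 90.4 CPM in CD11b+ NTN libraries, against 41.2, 62.4 and 66.1 CPM in CD11b+ healthy libraries. Among CD103+ libraries it was at 26.4, 35.1 and 35.0 CPM in NTN libraries, against 149, 198 and 95.7 CPM in healthy libraries. The 2 CD11b+ groups overlapped, while the 2 CD103+ groups were far apart. Ctsl fell by 2.15 ± 0.26 on the log2 scale in CD103+ cells in NTN (adjusted p = 1.02e-05), a 4.43-fold difference and the largest fall among the members there. In CD11b+ cells the difference was 0.55 ± 0.26 (limma adjusted p = 0.115). CD11b+ cells had less Ctsl than CD103+ cells in healthy kidneys (-1.35 ± 0.26, adjusted p = 0.000863) and more in NTN kidneys (1.34 ± 0.26, adjusted p = 0.00211; 1.17 and limma adjusted p = 0.0794 under leukocyte scaling). The responses differed by 2.70 ± 0.37 (adjusted p = 0.00035). The healthy CD103+ libraries ran in the same order for Ctsl as for their tubule marker share, which was 4.98%, 5.68% and 3.52%, and all 15 tubule markers fell in CD103+ cells in NTN. The part of tubule RNA in the fall of Ctsl was not tested. In the annotation 26.8% of Ctsl exon bases are also exon of gene models on either strand, so how the counting shared reads there is uncertain.

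Ctsb (ENSMUSG00000021939, chromosome 14, 63122462 to 63145923, + strand) encodes cathepsin B, which works as an endopeptidase and as a carboxydipeptidase. Its level was 1927, 2117 and 2120 CPM in CD11b+ NTN libraries, against 1011, 1314 and 1172 CPM in CD11b+ healthy libraries. For CD103+ cells the levels were 1023, 969 and 1022 CPM in NTN libraries, against 1019, 1134 and 935 CPM in healthy libraries. The CD11b+ NTN libraries stood above all others, and the other 3 groups overlapped their neighbours. Ctsb rose by 0.82 ± 0.13 in CD11b+ cells (adjusted p = 0.00043; 0.39 and limma adjusted p = 0.283 under leukocyte scaling). The difference in CD103+ cells was -0.03 ± 0.13 (limma adjusted p = 0.851; -1.65 and adjusted p = 5.03e-05 under leukocyte scaling) and the responses differed by 0.86 ± 0.19 (adjusted p = 0.00405). Between the subsets the difference was 1.03 ± 0.13 in NTN kidneys (adjusted p = 6.88e-05) and 0.18 ± 0.13 in healthy kidneys (limma adjusted p = 0.288; -1.19 and adjusted p = 0.000839 under leukocyte scaling). Of Ctsb exon bases 12.8% are also exon of a gene on the opposite strand, whose reads cannot be told apart without a strand setting.

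Ctsh (ENSMUSG00000032359, chromosome 9, 90054152 to 90076089, + strand) encodes cathepsin H, chiefly an aminopeptidase. It marked the subset and hardly the state. It stood at 742, 784 and 860 CPM in CD11b+ NTN libraries and 668, 709 and 675 CPM in CD11b+ healthy libraries. The CD103+ libraries had 257, 269 and 269 CPM in NTN libraries and 227, 223 and 219 CPM in healthy libraries. No group overlapped another, but the steps between the states were small. CD11b+ cells had 2.99-fold the Ctsh level of CD103+ cells in NTN kidneys (1.58 ± 0.11, adjusted p = 1.88e-07) and 3.06-fold in healthy kidneys (1.61 ± 0.11, adjusted p = 1.38e-07; 0.25 and limma adjusted p = 0.322 under leukocyte scaling). The NTN differences were 0.22 ± 0.11 in CD11b+ cells (limma adjusted p = 0.141) and 0.25 ± 0.11 in CD103+ cells (limma adjusted p = 0.062), and their difference was -0.03 ± 0.15 (limma adjusted p = 0.886; 1.15 and adjusted p = 0.0116 under leukocyte scaling). The CD103+ difference passed with array weights (adjusted p = 0.0289) and median centring (adjusted p = 0.0153), and under leukocyte scaling it was -1.37 and passed as a fall.

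Ctsc (ENSMUSG00000030560, chromosome 7, 88278085 to 88310888, + strand) encodes cathepsin C, or dipeptidyl peptidase I, which switches on the granule serine proteases of cytotoxic cells, mast cells and neutrophils. It had the largest rise of the members in CD11b+ cells. It stood at 1402, 1409 and 1395 CPM in CD11b+ NTN libraries, against 435, 548 and 481 CPM in CD11b+ healthy libraries. Its CD103+ levels were 683, 634 and 662 CPM in NTN libraries, against 167, 139 and 293 CPM in healthy libraries. No group overlapped another, and both NTN groups lay above both healthy groups. Ctsc rose by 1.53 ± 0.21 in CD11b+ cells (adjusted p = 0.000139) and by 1.80 ± 0.21 in CD103+ cells (adjusted p = 7.07e-06; 0.18 and limma adjusted p = 0.33 under leukocyte scaling). It was higher in CD11b+ than in CD103+ cells by 1.09 ± 0.21 in NTN kidneys (adjusted p = 0.00205) and by 1.36 ± 0.21 in healthy kidneys (adjusted p = 0.000169; near 0 under leukocyte scaling). The responses differed by -0.27 ± 0.30 (limma adjusted p = 0.498), by -0.59 with a limma adjusted p = 0.0129 without the third healthy CD103+ library, and by 0.92 (adjusted p = 0.00691) under leukocyte scaling. Of the granzyme genes, whose products it activates, Gzma fell by 1.54 ± 0.36 in CD11b+ cells in NTN (adjusted p = 0.00505), and the NTN response of Gzmb was lower in CD11b+ than in CD103+ cells by -1.92 ± 0.39 (adjusted p = 0.00283; -0.73 and limma adjusted p = 0.211 under leukocyte scaling). Gzmb differed by -0.0084 ± 0.28 in CD11b+ cells (limma adjusted p = 0.986) and rose by 1.91 ± 0.28 in CD103+ cells (adjusted p = 5e-05; 0.29 and limma adjusted p = 0.444 under leukocyte scaling). Mean sums of NK cell markers were 60.2 CPM in NTN and 136 CPM in healthy CD11b+ cells, and 53.0 and 12.3 CPM in CD103+ cells. T cell markers summed to 415 and 592 CPM in CD11b+ cells and to 347 and 154 CPM in CD103+ cells, in the same order. The part of these cells in the granzyme results was not tested.

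Ctsz (ENSMUSG00000016256, chromosome 2, 174427493 to 174439039, - strand) encodes cathepsin Z, also called X, a carboxypeptidase that removes single residues. It stood at 669, 745 and 842 CPM in CD11b+ NTN libraries, against 335, 358 and 317 CPM in CD11b+ healthy libraries. Among CD103+ libraries it was at 453, 447 and 475 CPM in NTN libraries, against 210.2, 206 and 237 CPM in healthy libraries. No group overlapped another, and as for Ctsc both NTN groups lay above both healthy groups. Ctsz rose by 1.16 ± 0.12 in CD11b+ cells (adjusted p = 2.75e-05) and by 1.08 ± 0.12 in CD103+ cells (adjusted p = 5.83e-06), and the responses differed by 0.08 ± 0.17 (limma adjusted p = 0.751; 1.27 and adjusted p = 0.00454 under leukocyte scaling). It was higher in CD11b+ cells by 0.71 ± 0.12 in NTN kidneys (adjusted p = 0.000898) and by 0.63 ± 0.12 in healthy kidneys (adjusted p = 0.000937). Leukocyte scaling turned the CD103+ rise to -0.55 and the healthy subset difference to -0.73, both past the threshold, and took the NTN subset difference to 0.53 (limma adjusted p = 0.127). The CD11b+ rise passed at 0.72 (adjusted p = 0.0215).

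Ctsd (ENSMUSG00000007891, chromosome 7, 142375911 to 142388038, - strand) encodes cathepsin D, the main aspartic endopeptidase of lysosomes. The subsets moved in opposite directions. It stood at 315, 391 and 458 CPM in CD11b+ NTN libraries, against 159, 197 and 239 CPM in CD11b+ healthy libraries. For CD103+ cells the levels were 142, 134 and 161 CPM in NTN libraries, against 451, 548 and 299 CPM in healthy libraries. Within each subset the states did not overlap. Ctsd rose by 0.97 ± 0.22 in CD11b+ cells (adjusted p = 0.00346; 0.54 and limma adjusted p = 0.3 under leukocyte scaling) and fell by 1.53 ± 0.22 on the log2 scale in CD103+ cells (adjusted p = 3.54e-05). The responses differed by 2.50 ± 0.30 (adjusted p = 0.000213). CD11b+ cells had more Ctsd than CD103+ cells in NTN kidneys (1.40 ± 0.22, adjusted p = 0.000322) and less in healthy kidneys (-1.10 ± 0.22, adjusted p = 0.000955). As for Ctsl, the healthy CD103+ libraries ran in the order of their tubule share, whose part was not tested. In the annotation 34.4% of Ctsd exon bases are also exon of a gene model on the same strand, so how the counting shared reads there is uncertain.

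Ctse (ENSMUSG00000004552, chromosome 1, 131638306 to 131675505, + strand) encodes cathepsin E, an aspartic protease of endosomes found in immune and gastric cells. It was the member that set CD103+ cells of nephritic kidneys apart. It stood at 115, 121 and 125.5 CPM in CD11b+ NTN libraries, against 88.5, 95.2 and 71.6 CPM in CD11b+ healthy libraries. The CD103+ libraries had 314, 325 and 299 CPM in NTN libraries, against 87.0, 61.0 and 121 CPM in healthy libraries. The CD103+ NTN libraries lay above all others, and the other 3 groups overlapped their neighbours in the order CD11b+ NTN, CD103+ healthy and CD11b+ healthy. Ctse rose by 1.86 ± 0.20 in CD103+ cells (adjusted p = 3.01e-06; 0.23 and limma adjusted p = 0.222 under leukocyte scaling). In CD11b+ cells the difference was 0.51 ± 0.20 (limma adjusted p = 0.0549; 0.0461 by voom and 0.016 with array weights). It was lower in CD11b+ than in CD103+ cells in NTN kidneys (-1.37 ± 0.20, adjusted p = 0.000174; -1.55 and adjusted p = 1.29e-05 under leukocyte scaling), while the difference between the healthy subsets was -0.03 ± 0.20 (limma adjusted p = 0.912; -1.39 and adjusted p = 1.75e-05 under leukocyte scaling). The responses differed by -1.34 ± 0.28 (adjusted p = 0.00286; -0.16 and limma adjusted p = 0.606 under leukocyte scaling).

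Ctsa (ENSMUSG00000017760, chromosome 2, 164832873 to 164841032, + strand) encodes cathepsin A, a serine carboxypeptidase that also protects neuraminidase 1 and beta-galactosidase in a lysosomal complex. Its distance between the NTN subsets was the widest of all members. It stood at 575, 711 and 805 CPM in CD11b+ NTN libraries, against 303, 357 and 307 CPM in CD11b+ healthy libraries. Its CD103+ levels were 86.8, 91.1 and 95.4 CPM in NTN libraries, against 211, 250.5 and 136 CPM in healthy libraries. No group overlapped another, and the 2 NTN groups formed the ends of the order. CD11b+ NTN cells had 7.58-fold the level of CD103+ NTN cells (2.92 ± 0.19, adjusted p = 1.25e-07; 2.75 and adjusted p = 4.84e-05 under leukocyte scaling). Ctsa rose by 1.10 ± 0.19 in CD11b+ cells (adjusted p = 0.000799; 0.67 and limma adjusted p = 0.173 under leukocyte scaling) and fell by 1.08 ± 0.19 on the log2 scale in CD103+ cells (adjusted p = 0.000274). The responses differed by 2.19 ± 0.28 (adjusted p = 0.000249). The healthy subsets differed by 0.73 ± 0.19 (adjusted p = 0.00684), by 0.48 without the third healthy CD103+ library and by -0.63 under leukocyte scaling (limma adjusted p = 0.109). The healthy CD103+ libraries ran in the order of their tubule share here too. Of Ctsa exon bases 17.4% are also exon of genes on the opposite strand.

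Neu1, the neuraminidase that cathepsin A protects, did not follow it in every group. It stood at 35.5, 27.9 and 36.5 CPM in CD11b+ NTN libraries, against 43.9, 56.0 and 75.8 CPM in CD11b+ healthy libraries. Among CD103+ libraries it was at 17.0, 18.3 and 15.3 CPM in NTN libraries, against 179, 138 and 118 CPM in healthy libraries. Neu1 fell by 3.08 ± 0.20 on the log2 scale in CD103+ cells (adjusted p = 1.02e-07) and, unlike Ctsa, fell by 0.79 ± 0.20 in CD11b+ cells (adjusted p = 0.00842). It was higher in CD11b+ than in CD103+ cells by 0.97 ± 0.20 in NTN kidneys (adjusted p = 0.00356; 0.80 and limma adjusted p = 0.135 under leukocyte scaling). Most tubule markers also fell in both subsets in NTN, and their part in the falls of Neu1 was not tested.

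Ctsk (ENSMUSG00000028111, chromosome 3, 95499256 to 95509362, + strand) encodes cathepsin K, the collagen-cutting protease of osteoclasts, and was barely detected. It had 9, 6 and 39 reads in CD11b+ NTN libraries, against 24, 9 and 0 reads in CD11b+ healthy libraries. It had 1, 1 and 4 reads in CD103+ NTN libraries and 0 reads in all 3 CD103+ healthy libraries, where 3 reads would be 0.136 to 0.200 CPM. No fold is given for these reads, and a library with 0 reads can hold a level up to about that of 3 reads.

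**Figure D2:**
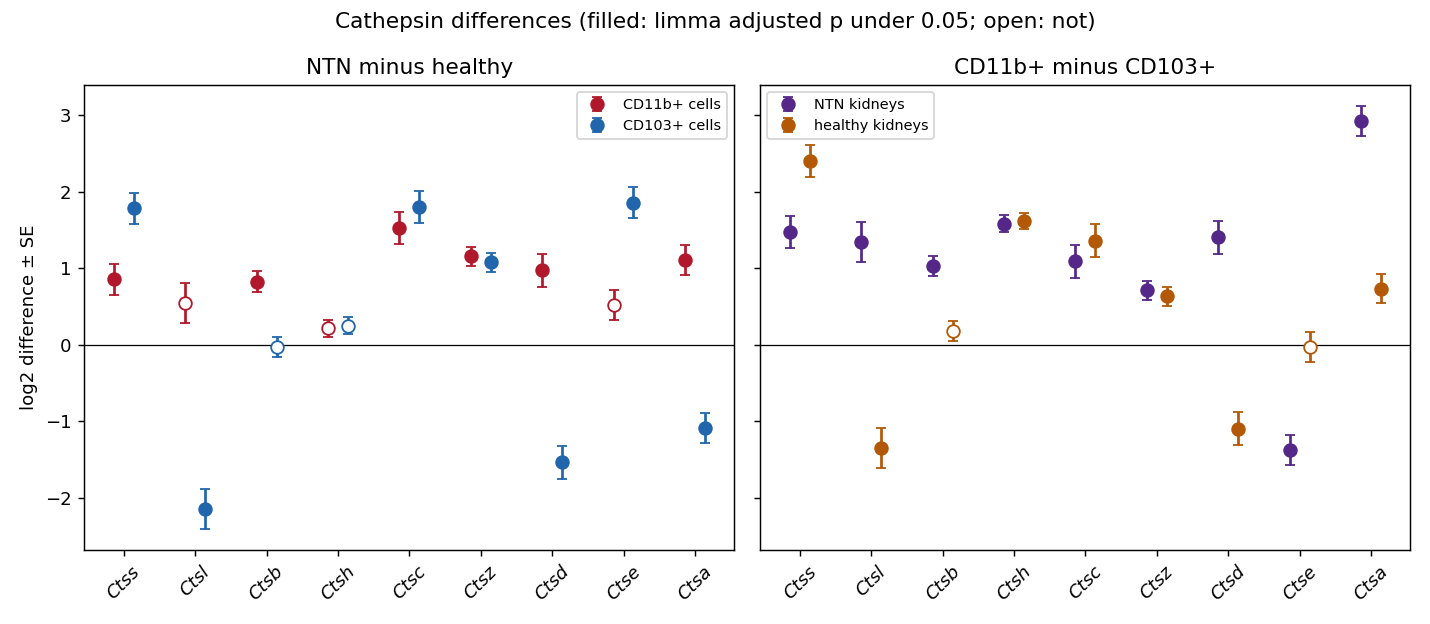
Log2 difference ± SE (y axis) of the 9 tested cathepsins in each comparison, with filled points for limma adjusted p under 0.05. Ctsa, Ctsd and Ctsl lie on opposite sides of 0 for the CD11b+ and CD103+ responses (1.10 and -1.08 for Ctsa, 0.97 and -1.53 for Ctsd, 0.55 and -2.15 for Ctsl), although the CD11b+ point of Ctsl did not pass.

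Per kilobase of transcript, the 10 genes together gave 4498 ± 338 CPM in CD11b+ NTN cells, against 2467 ± 202 in CD11b+ healthy cells, and 1941 ± 43.7 in CD103+ NTN cells, against 1182 ± 33.0 in CD103+ healthy cells (SD, n = 3 each). Ctss made up 44.8%, 45.3%, 37.4% and 18.6% of the sum in that order. In CD103+ healthy libraries it ran from 13.0% to 26.0%, and Ctsb and Ctsd were larger than it in 2 of the 3. In CD11b+ cells Ctsc made up 12.6% in NTN and 7.92% in healthy cells, and Ctsh 10.9% in NTN and 17.2% in healthy cells. In CD103+ cells the make-up differed more. Ctse made up 7.58% in NTN cells and 3.55% in healthy cells, Ctsc 13.6% and 6.73%, and Ctsz 16.4% and 12.8%. On the other side, Ctsd made up 3.52% in NTN cells and 17.3% in healthy cells, Ctsl 0.840% and 6.36%, and Ctsb 10.9% and 18.4%. The shares depend on the length used. With all annotated exon bases in place of 1 transcript, Ctsc made up 6.63% in CD11b+ NTN and 4.27% in CD11b+ healthy cells, Ctsh 4.84% and 7.75%, and Ctsl 2.54% in CD103+ healthy cells. These shares are descriptions and were not tested, and the shares of healthy CD103+ cells include whatever the tubule RNA contributed.

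**Figure D3:**
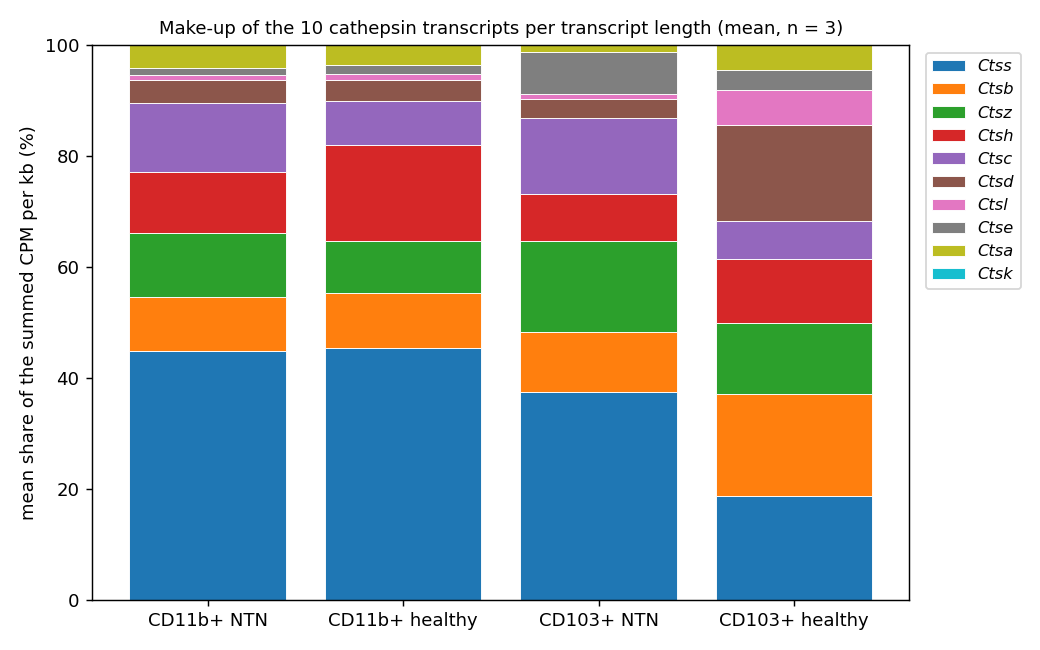
Make-up of the cathepsin transcripts (y axis, mean percent of summed CPM per kilobase of transcript over 3 libraries) in the 4 groups. Ctss fills 44.8% of the bar of CD11b+ NTN cells and 18.6% of the bar of CD103+ healthy cells, where Ctsd (17.3%) and Ctsb (18.4%) take a similar share.

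**Figure D4:**
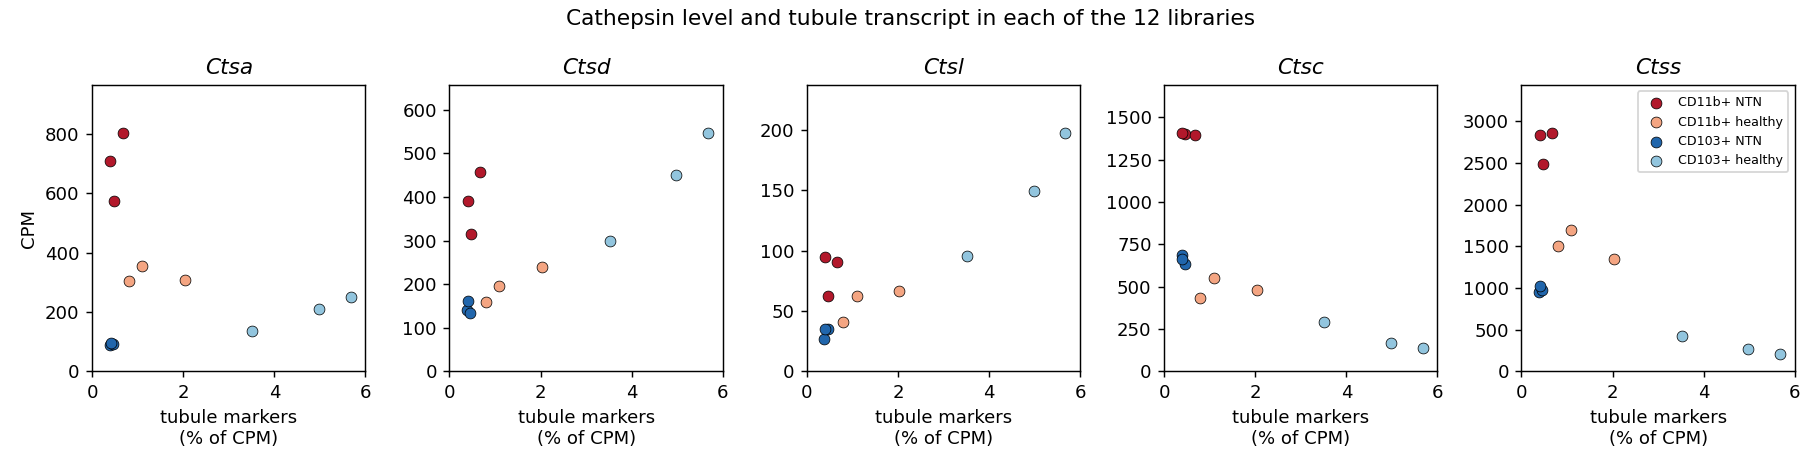
Level of Ctsa, Ctsd, Ctsl, Ctsc and Ctss in CPM (y axis, own scale per gene) against the summed share of the 15 tubule markers in percent of CPM (x axis), with 1 point per library and a colour per group. The healthy CD103+ libraries sit apart at 3.52% to 5.68% tubule markers, the NTN libraries of both subsets share the range from 0.383% to 0.667%, and within the healthy CD103+ group Ctsa, Ctsd and Ctsl were highest and Ctsc and Ctss lowest in the library with 5.68%.

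The other cathepsin genes that could be tested were Ctsf, Ctsw and Ctso. Ctsf, a widely expressed cysteine protease, fell in both subsets in NTN, by 1.03 ± 0.33 in CD11b+ cells (adjusted p = 0.027, a call made in 3 of the 6 fits that leave out 1 library) and by 3.05 ± 0.33 in CD103+ cells (adjusted p = 3.91e-06). Ctsw, a cysteine protease known from cytotoxic lymphocytes, fell by 0.82 ± 0.22 in CD11b+ cells (adjusted p = 0.0098; limma adjusted p = 0.0522 without the second CD11b+ NTN library) and rose by 1.91 ± 0.22 in CD103+ cells (adjusted p = 5.43e-06; 0.29 and limma adjusted p = 0.394 under leukocyte scaling). The T cell markers summed to 370 to 472 CPM in CD11b+ NTN, 524 to 727 CPM in CD11b+ healthy, 324 to 390 CPM in CD103+ NTN and 117 to 200.3 CPM in CD103+ healthy libraries, and their part in the Ctsw result was not tested. Ctso fell by 0.61 ± 0.15 in CD103+ cells (adjusted p = 0.00367), with a difference of -0.36 ± 0.15 in CD11b+ cells (limma adjusted p = 0.0844). Most tubule markers fell in both subsets in NTN as well, and their part in the falls of Ctsf and Ctso was not tested. Ctsll3 had 7 reads in all CD11b+ NTN libraries together and 0 reads in the other groups, and Ctsq had 1 read in CD11b+ NTN and 1 in CD103+ healthy libraries. Of the 13 other cathepsins listed these 5 were found by symbol in the deposited table, and the rest, Ctsg among them, were not.

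Of 17 listed inhibitors of cathepsins 6 could be tested, and of these Cst3 had the largest difference between the NTN subsets. Cst3 encodes cystatin C, a secreted inhibitor of cysteine cathepsins. It stood at 1164, 987 and 1214 CPM in CD11b+ NTN libraries, against 3009, 2861 and 2801 CPM in CD11b+ healthy libraries. For CD103+ cells the levels were 7058, 7394 and 7472 CPM in NTN libraries, against 4310, 2878 and 7105 CPM in healthy libraries. Cst3 fell by 1.37 ± 0.24 in CD11b+ cells in NTN (adjusted p = 0.00073), the direction opposite to Ctss, Ctsb, Ctsc, Ctsz, Ctsa and Ctsd there. In that comparison 5 of 7 markers of the cross-presenting dendritic cell type fell and 1 rose. Of 12 macrophage markers 10 rose, and the part of these cells in the fall of Cst3 was not tested. Cst3 was lower in CD11b+ than in CD103+ cells in NTN kidneys by -2.71 ± 0.24 (adjusted p = 1.97e-06). It rose by 0.72 ± 0.24 in CD103+ cells (adjusted p = 0.018), where its libraries overlapped, the value without the second healthy CD103+ library was 0.40 (limma adjusted p = 0.0688), without the first 0.69 (limma adjusted p = 0.052), and leukocyte scaling gave -0.91, and the responses differed by -2.09 ± 0.34 (adjusted p = 0.000753). Cst7, the endosomal inhibitor cystatin F, which acts on cathepsin C among others, rose in both subsets, by 1.27 ± 0.35 in CD11b+ cells (adjusted p = 0.0119) and by 2.36 ± 0.35 in CD103+ cells (adjusted p = 5.28e-05). Under leukocyte scaling neither passed (0.84 and 0.74, limma adjusted p = 0.198 and 0.154), and the CD11b+ call was lost without the third CD11b+ NTN library (limma adjusted p = 0.0647). Its levels were low, 15.0 ± 6.15 CPM in CD11b+ NTN and 5.88 ± 0.137 CPM in CD11b+ healthy cells, and 7.45 ± 1.15 CPM in CD103+ NTN and 1.51 ± 0.645 CPM in CD103+ healthy cells. Cstb, the cytosolic cystatin B, rose by 0.44 ± 0.14 in CD11b+ cells (adjusted p = 0.0287). This rise was called in 2 of the 6 fits without 1 library, and under leukocyte scaling its log2 difference was only 0.0086. Cstb fell by 0.49 ± 0.14 in CD103+ cells (adjusted p = 0.00882; -0.32 without the second healthy CD103+ library), and the responses differed by 0.94 ± 0.20 (adjusted p = 0.0039). Serpinb1a, an inhibitor of neutrophil-type serine proteases, fell by 0.60 ± 0.21 in CD11b+ cells (adjusted p = 0.0378; called in 1 of the 6 fits without 1 library) and by 1.35 ± 0.21 in CD103+ cells (adjusted p = 8.17e-05). Serpinb6a differed by -0.19 ± 0.25 in CD11b+ cells and by -0.51 ± 0.25 in CD103+ cells (limma adjusted p = 0.576 and 0.0907), and Serpinb6b by 0.75 ± 0.58 and 0.04 ± 0.58 (limma adjusted p = 0.339 and 0.96). In all, 2 inhibitors rose and 2 fell in each subset in NTN, where 35.9% of all genes passed in CD11b+ and 62.4% in CD103+ cells, so that 4 of 6 in CD103+ cells is close to the background.

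Of 8 other lysosomal proteases and thiol reductases, all tested, 4 rose and none fell in CD11b+ cells in NTN by limma (5 had an unadjusted p under 0.05 and 4 passed by voom), while 2 rose and 3 fell in CD103+ cells, where 35.9% and 62.4% of all genes passed. Their median log2 differences were 0.39 and -0.31, against 0.08 and 0.16 over all genes. Lgmn encodes legumain, the asparaginyl endopeptidase that processes several cathepsins. It stood at 269, 247 and 292 CPM in CD11b+ NTN libraries, against 181, 258 and 342 CPM in CD11b+ healthy libraries. The CD103+ libraries had 87.8, 88.2 and 121 CPM in NTN libraries, against 614, 629 and 431 CPM in healthy libraries. Lgmn fell by 2.49 ± 0.22 on the log2 scale in CD103+ cells (adjusted p = 6.8e-07) and was higher in CD11b+ than in CD103+ cells in NTN kidneys by 1.46 ± 0.22 (adjusted p = 0.000265), as were Ctsd and Ctsl. In each subset the healthy libraries ran in the order of their tubule share for Lgmn, and the part of tubule RNA in its fall was not tested. Tpp1, a tripeptidyl peptidase, likewise fell by 1.70 ± 0.17 in CD103+ cells (adjusted p = 2.17e-06) and rose by 0.49 ± 0.17 in CD11b+ cells (adjusted p = 0.0388). The rise was called in 1 of the 6 fits without 1 library, was 0.30 without the first CD11b+ healthy library (limma adjusted p = 0.169) and was 0.060 under leukocyte scaling (limma adjusted p = 0.91). The part of tubule RNA in the fall of Tpp1 was not tested either. Ifi30 encodes the interferon-inducible reductase that opens disulfide bonds of antigens before cleavage. It rose by 0.85 ± 0.13 in CD11b+ cells (adjusted p = 0.000307; 0.42 and limma adjusted p = 0.162 under leukocyte scaling) and by 1.54 ± 0.13 in CD103+ cells (adjusted p = 5.54e-07; -0.088 under leukocyte scaling), and was higher in CD11b+ cells by 0.77 ± 0.13 in NTN kidneys (adjusted p = 0.000772; 0.59 and limma adjusted p = 0.0874 under leukocyte scaling).

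Among 13 tested substrates and partners 2 rose and 3 fell in CD11b+ cells in NTN, and 9 rose and 3 fell in CD103+ cells, where 35.9% and 62.4% of all genes passed. Their medians were 0.04 and 1.33, against 0.08 and 0.16 over all genes. Psap, the precursor of the saposins that cathepsin D cuts, rose by 2.59 ± 0.21 in CD11b+ cells (adjusted p = 3.92e-06) and by 1.79 ± 0.21 in CD103+ cells (adjusted p = 8.69e-06; 0.16 and limma adjusted p = 0.644 under leukocyte scaling). H2-DMb2, a chain of the chaperone that loads class II molecules, rose by 1.54 ± 0.20 in CD103+ cells (adjusted p = 1.88e-05; -0.087 under leukocyte scaling). Of the endosomal Toll-like receptors processed by cathepsins, Tlr3 was lower in CD11b+ than in CD103+ cells in NTN kidneys by -5.57 ± 0.23 (adjusted p = 9.02e-10) and Tlr7 was higher by 4.72 ± 0.56 (adjusted p = 3.52e-05). Tlr9 stood at 3.84 ± 0.531 CPM in CD11b+ NTN and 3.70 ± 0.261 CPM in CD103+ NTN cells, and these groups overlapped. Tlr3 is also a marker of the CD103+ lineage.

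Of 14 genes that deliver enzymes to lysosomes 7 rose and 4 fell in CD11b+ cells in NTN, and 8 rose and 6 fell in CD103+ cells, where 35.9% and 62.4% of all genes passed. Their medians were 0.47 and 0.65, against 0.08 and 0.16 over all genes. The smaller mannose 6-phosphate receptor gene M6pr rose in both subsets, by 1.03 ± 0.13 in CD11b+ cells (adjusted p = 6.94e-05; 0.60 and limma adjusted p = 0.0611 under leukocyte scaling) and by 1.06 ± 0.13 in CD103+ cells (adjusted p = 9.38e-06; -0.56 under leukocyte scaling). The larger receptor gene Igf2r fell in both subsets, by 1.02 ± 0.19 in CD11b+ cells (adjusted p = 0.00115) and by 0.59 ± 0.19 in CD103+ cells (limma adjusted p = 0.0145). Most tubule markers fell in both subsets as well, and their part in the falls of Igf2r was not tested. Igf2r was lower in CD11b+ than in CD103+ cells in NTN kidneys by -1.90 ± 0.19 (adjusted p = 6.46e-06). Of 10 genes for lysosome membrane proteins and TFEB-family factors 4 rose and 1 fell in CD11b+ cells, and 4 rose and 5 fell in CD103+ cells, with medians of 0.24 and -0.89 against the same medians of all genes. Lamp1 and Lamp2, the main membrane glycoproteins, fell by 2.27 ± 0.13 (adjusted p = 6.94e-08) and 1.27 ± 0.17 (adjusted p = 2.57e-05) in CD103+ cells, and Lamp2 rose by 0.68 ± 0.17 in CD11b+ cells (adjusted p = 0.00777; 0.24 and limma adjusted p = 0.62 under leukocyte scaling). The tubule markers fell in CD103+ cells too, and their part in the falls of Lamp1 and Lamp2 was not tested. Tfeb itself fell by 1.65 ± 0.32 in CD11b+ cells (adjusted p = 0.00138), where its level was 3.58 ± 0.759 CPM in NTN and 11.4 ± 3.55 CPM in healthy cells.

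Markers of other cells moved with the CD11b+ comparisons. The 12 macrophage markers summed to 3602 ± 327 CPM in CD11b+ NTN cells, against 1107 ± 78.4 CPM in CD11b+ healthy cells, and to 117 ± 8.12 CPM in CD103+ NTN cells, against 116 ± 34.1 CPM in CD103+ healthy cells. Of the 12, 10 rose in CD11b+ cells in NTN and 10 were higher in CD11b+ than in CD103+ cells in NTN kidneys, where Csf1r was at 418, 429 and 525 CPM in CD11b+ libraries and at 9.34, 7.39 and 7.20 CPM in CD103+ libraries. Neutrophil markers summed to 164 to 268 CPM in CD11b+ NTN, 65.8 to 139 CPM in CD11b+ healthy, 0.936 to 1.67 CPM in CD103+ NTN and 0.401 to 2.82 CPM in CD103+ healthy libraries, with the defining marker Ly6g at 0 reads in the first 3 of these groups. The part of these cells in the cathepsin differences was not tested.

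The likeness of the profiles is given as Pearson's r of the log2 level over the 12 libraries, which fall into the 4 groups and share the tubule gradient, so it is a description with no test. Among the members Ctsc and Ctsz ran most alike (r = 0.973), followed by Ctsd and Ctsl (r = 0.938) and Ctsc and Ctss (r = 0.935), and Ctse and Ctsl ran most against each other (r = -0.755). Outside the family, the gene closest to Ctss was Cd69 (r = 0.997), to Ctsh Ccl9 (r = 0.997), to Ctsc Pirb (r = 0.991), to Ctse Rab43 (r = 0.989) and to Ctsz Irf1 (r = 0.989). The gene closest to Ctsd was Pld3 (r = 0.982), to Ctsb Tpd52 (r = 0.980), to Ctsa Ralgps1 (r = 0.978) and to Ctsl Sdc4 (r = 0.968). The next for Ctse were Stat2 and Psme1, with r of 0.984 and 0.982. Those for Ctsz were Gbp7 and Slc36a4, for Ctsc Csf2rb2 and Cd44, for Ctss Rac2 and Tyrobp, and for Ctsh Ier3 and Cd33. For Ctsd they were Dmxl2 and Atp6v0b, for Ctsb Camk2d and Gdf3, for Ctsa Nupr1 and Smad3, and for Ctsl Sypl and Dstn. The r of these next genes ran from 0.957 (Smad3) to 0.996 (Rac2).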

How the data were processed

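Per the labels' protocols, cells were freed from kidneys by collagenase and DNase, enriched with CD45 beads, and sorted straight into lysis buffer. A SMARTer Ultra Low kit with 12 PCR cycles gave the libraries, which were read as single 50-base reads. The submitters' processing notes name STAR 2.0.4b, Subread, featureCounts 1.4.5 and edgeR without their role or order. The genome build, strand setting and treatment of overlapping genes are not given in the sources used here. The deposited log2 values are 1 table of 26281 lines, of which 160 repeated lines were dropped. In each library these values gave whole reads for 100% of genes within 0.05 when read as log2 of (reads + 0.5) per M of a scaled library size, with scaling factors of 0.921 to 1.08. CPM are the recovered reads per M of that size. Of 26121 gene IDs 26004 are in GENCODE M21, which gave coordinates and transcript lengths, and levels per kilobase used the shortest principal coding transcript.

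limma 3.58.1 in R 4.3.3 was fitted to the deposited log2 values of all 12 libraries with a mean for each group, using trended and robust empirical Bayes. Two-sided p values were adjusted over the 14180 genes tested, with a threshold of 0.05, and 11941 genes were left out by the filter. The fit was tested on simulated data. Python 3.11.15 (numpy 2.4.6, pandas 2.3.3, matplotlib 3.10.9) made the tables and plots. The members, the gene lists and the leukocyte scaling were chosen with earlier results of these data known. From each list other than markers, up to 4 genes per comparison with the smallest adjusted p could be named, as well as tested inhibitors and other cathepsins, which are given for NTN against healthy throughout and for other comparisons in part. Which of these genes the text gives, the Lgmn levels, the Igf2r difference in CD103+ cells, Dcstamp and Acp5 were chosen after their values were seen. Likeness named the genes with the highest r. Each mouse gave both subsets, but no label ties a library's number to a mouse, so the main fit has no block, and p values measure the spread between the libraries.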

Additional observations from a re-analysis of the deposited data

Results flagged for a closer look

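For 6 of the 9 tested cathepsins the response to NTN differed between the subsets by limma's test of the difference of responses (CD11b+ minus CD103+, log2). The difference was 2.70 ± 0.37 for Ctsl, 2.50 ± 0.30 for Ctsd, 2.19 ± 0.28 for Ctsa and 0.86 ± 0.19 for Ctsb, with limma adjusted p values of 0.00035, 0.000213, 0.000249 and 0.00405 in that order. It was -1.34 ± 0.28 for Ctse and -0.93 ± 0.29 for Ctss, with limma adjusted p values of 0.00286 and 0.0249. Of all tested genes 35.4% passed this test. Ctsa and Ctsd rose in CD11b+ cells and fell in CD103+ cells, with no overlap of NTN and healthy libraries in either subset. Neither rise in CD11b+ cells passed under leukocyte scaling. That scaling shifts every gene of a comparison by the same amount, and here the median over all tested genes went from -0.07 to 1.12. With this shift the differences of Ctsl, Ctsd, Ctsa and Ctsb were 3.88, 3.69, 3.38 and 2.04, and those of Ctse and Ctss missed the threshold (-0.16 and 0.26). Of all tested genes 6144 were then called higher and 179 lower, against 2510 and 2512 as deposited. The tubule markers moved with this comparison as well, 12 of 15 in the direction of Ctsl, Ctsd, Ctsa and Ctsb and none in the other, as were 8 of 12 macrophage markers. In the direction of Ctse and Ctss were all 8 T cell, all 5 tested NK cell and all 5 tested B cell markers and 22 of 29 tested leukocyte reference genes. All 7 markers of the cross-presenting dendritic cell type lay in that direction too. So did 4 of 6 markers of the other conventional type, with 1 in the opposite direction. Of 8 monocyte markers 3 lay in that direction and 2 in the opposite one. The part of these cells was not tested.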

How the results depend on the processing

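Across the settings tried, 720 of the single values of the 9 cathepsins kept their direction and their side of the threshold, 11 passed it newly, 16 lost it and 18 changed sign. Leukocyte scaling did most of this, by its construction relative to the leukocyte genes; the cause of other changes was not tested. Under it 2 cathepsins were called in CD11b+ cells in NTN, against 6 as deposited. In CD103+ cells in NTN it turned Ctsh to -1.37, Ctsz to -0.55, Cst3 to -0.91, Serpinb6b to -1.59, Ifi30 to -0.088, H2-DMb2 to -0.087 and M6pr to -0.56, and in CD11b+ cells it turned Ctsh to -0.22. Between the healthy subsets it turned Ctsa to -0.63, Ctsb to -1.19, Ctsc to -0.0034 and Ctsz to -0.73. For the difference of responses it gave 0.92 for Ctsc, 1.15 for Ctsh and 0.26 for Ctss. Median centring gave 0.057 for Ctsb in CD103+ cells, array weights gave 0.013 for Ctse between the healthy subsets and -0.013 for Ctsz in the difference of responses, and for Gzmb in CD11b+ cells a pseudocount of 4 CPM, median centring and voom gave 0.0021, 0.014 and 0.022, all far from the threshold. Leaving out each library in turn kept the count of called cathepsins at 7 in CD103+ cells, 6 in CD11b+ cells, 7 between the healthy subsets and 9 between the NTN subsets, and gave 5 to 7 for the difference of responses. Values that changed sign on leaving out a library ranged from -0.098 to 0.041 for Ctsb, -0.072 to 0.19 for Serpinb6b in CD103+ cells, -0.36 to 0.012 for Serpinb6a, -0.20 to 1.31 for Serpinb6b and -0.27 to 0.18 for Gzmb in CD11b+ cells, -0.28 to 0.21 for Ctse between the healthy subsets, and -0.091 to 0.015 for Ctsh and -0.0067 to 0.16 for Ctsz in the difference of responses. Of all genes, 10680 were called between the healthy subsets under leukocyte scaling, against 7084 as deposited. Between the NTN subsets 4472 were called with array weights and 4062 with only the groups compared, against 2534, and median centring made the split 1188 higher and 1553 lower, against 1370 and 1164. With the replicate number as a block, the difference of responses of Ctss kept its value of -0.93 with a limma adjusted p = 0.0629, so 5 cathepsins were called there, and no other cathepsin call changed. Deviations of the same number in CD11b+ and CD103+ cells correlated at 0.066, 0.052 and 0.151 in NTN and at -0.0139, 0.0003 and -0.154 in healthy kidneys. Those of different numbers ran from -0.136 to 0.0742 in NTN and from -0.100 to 0.115 in healthy kidneys. So few and weak correlations cannot decide whether a number marks a mouse. Depth limits statements on Ctsk alone among the members.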

Other observations

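Markers of lymphocytes also differed between the groups. B cell markers summed to 48.8 to 67.2 CPM in CD11b+ NTN, 162 to 282 CPM in CD11b+ healthy, 24.9 to 29.6 CPM in CD103+ NTN and 31.4 to 37.1 CPM in CD103+ healthy libraries. NK cell markers summed to 57.8 to 62.9 CPM in CD11b+ NTN, 116 to 152 CPM in CD11b+ healthy, 44.5 to 64.9 CPM in CD103+ NTN and 7.28 to 16.9 CPM in CD103+ healthy libraries. Genes known from osteoclasts other than Ctsk (6 markers) summed to 214 to 257 CPM in CD11b+ NTN, 82.4 to 93.5 CPM in CD11b+ healthy, 35.3 to 46.3 CPM in CD103+ NTN and 97.5 to 175 CPM in CD103+ healthy libraries. Of the 4 that could be tested 2 rose in CD11b+ cells in NTN, and 1 rose and 2 fell in CD103+ cells, where 35.9% and 62.4% of all genes passed. By voom 1 passed in CD11b+ and 3 in CD103+ cells. Dcstamp, a membrane protein of fusing osteoclasts that dendritic cells also make, made up most of the sum in CD11b+ NTN cells, with 160 ± 13.7 CPM, against 20.5 ± 2.70 CPM in CD11b+ healthy cells (SD, n = 3 each). Acp5, an acid phosphatase of osteoclasts and macrophages, stood at 45.5 ± 7.79 CPM in CD11b+ NTN cells, against 56.7 ± 3.19 CPM in CD11b+ healthy cells, and at 20.7 ± 3.04 CPM in CD103+ NTN cells, against 67.5 ± 13.1 CPM in CD103+ healthy cells.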
